A study of Gallus gallus with 6 samples.

Results

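The genes described here encode the proteins of the lens capsule and of the extracellular matrix in general: the collagen chains, the laminin chains, the nidogens, perlecan (HSPG2) and agrin (AGRN). They were taken by symbol from the deposited table of gene expression, which gave 46 of its 16561 entries. Of the 46, 19 are basement membrane chains (4 chains of collagen IV, COL15A1, 10 laminin chains, 2 nidogens, perlecan and agrin), 7 are fibrillar collagens and 20 are other collagens. Other chains that the same symbols would cover, such as COL4A4, COL4A6 and COL18A1, were not analysed here. The question asked was how the expression of these genes differed between the undifferentiated lens epithelial cells and the lens fiber cells that arise from them.

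Gene expression had been measured by RNA-seq in White Leghorn chick embryos at embryonic day 13. The lens epithelial cells gave 3 libraries and the lens fiber cells 3 more, each made from the total RNA of cells dissected from pooled lenses. The paper describes the lenses of a replicate as divided into both cell types, so that libraries may share a lens pool. No label states that equal replicate numbers mark the same pool. The main tests therefore took the libraries as unpaired, and a block for the replicate number was used as an alternative. The epithelial dissection took the central and the equatorial epithelium together, and the fiber dissection took peripheral and central fibers together, so that zones within either cell type were averaged.

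The lens is enclosed by the capsule, a thick basement membrane that is laid down by the lens cells themselves and grows with the lens. Epithelial cells rest on its anterior side, and elongating fiber cells keep contact with its posterior side. In a basement membrane, laminins are trimers of an alpha, a beta and a gamma chain that assemble first at the cell surface, collagen IV trimers form a covalently crosslinked network, and nidogens and the heparan sulfate proteoglycans perlecan and agrin link these networks. Fibrillar collagens, in contrast, form the fibers of connective tissue, cartilage and the vitreous.

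Values are FPKM, in which fragment counts are divided by transcript length and by library size. The number of reads behind each value is unknown, and 0.0001 FPKM stands in the table for an entry without signal. The 6 libraries summed to 213591 to 232329 FPKM, and Pearson's r across entries was 0.976 to 0.982 within a cell type and 0.745 to 0.822 between the cell types. By the test used throughout, all 6 lens epithelial markers in the table were called lower in fiber cells (5 after centring), and 7 of 9 lens fiber markers were called higher (8 after centring). Over all tested entries 57.7% were called lower and 13.1% higher (29.3% and 30.2% after centring). DNASE2B, a fiber nuclease, was called lower on the deposited scale only. Summed lens epithelial markers were at 374 to 437 FPKM in epithelial and 69.1 to 99.0 FPKM in fiber libraries. Summed lens fiber markers were at 1488 to 2675 FPKM in epithelial and 10196 to 11294 FPKM in fiber libraries. How far either dissection carried cells of the other type was not tested. Summed markers of immune cells were at 4.98 to 5.82 FPKM in epithelial and 2.01 to 2.67 FPKM in fiber libraries, and those of erythrocytes at 0.0369 to 0.212 and 6.07 to 8.03 FPKM. Single genes carried the immune and erythrocyte sums. CD74 had means of 4.89 FPKM in epithelial and 2.11 FPKM in fiber cells, and HBZ had 6.51 FPKM in fiber cells. The other immune markers had means of at most 0.292 FPKM, and the other erythrocyte markers of at most 0.679 FPKM. The part of such cells in the results was not tested. FPKM are relative within a library, and the median tested gene had a log2 fold change, fiber over epithelial, of −0.62. Results are therefore also given after each library was centred on its median, which brought the median gene to −0.01. The 3 libraries of a cell type are labelled as replicates, and the paper describes them as biological triplicates. Every limma p-value sets the difference between the cell types against the spread among libraries of a cell type. That spread is moderated by a trend over all tested entries. In bulk RNA, fewer cells of a type and less RNA per cell cannot be told apart.

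Most of the detected matrix genes were lower in fiber cells. Among the 22 genes that averaged 0.5 FPKM or more across the 6 libraries, 16 were called lower and 3 were called higher: LAMA5, LAMA1 and COL10A1. HSPG2, LAMC1 and COL3A1 were not called either way. A call was a Benjamini-Hochberg adjusted p under 0.05 by limma on log2(FPKM + 0.1) over all 10818 tested entries, with a log2 fold change beyond 0.4 in size. The background was high, as 57.7% of all tested entries were called lower and 13.1% were called higher by the same rule. The matrix genes gave 72.7% and 13.6%, and their median log2 fold change was −1.58. After centring, 12 of the 22 were called lower against 29.3% of all tested entries, and 4 were called higher against 30.2%. The median of the 22 was then −0.98.

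Of the 22 genes, 5 reached the minimum only through their level in epithelial cells (COL8A2, COL26A1, COL9A1, COL27A1 and COL5A2), so that their lower value in fiber cells was partly built into the selection. Among the other 17, with a mean of at least 0.5 FPKM in both cell types, 11 were called lower and 3 higher, and 8 and 4 after centring. These are 64.7% and 17.6%, not far from the 57.7% and 13.1% of all tested entries. After centring they are 47.1% and 23.5%, beside 29.3% and 30.2%. The libraries of the cell types did not overlap for 20 of the 22 genes, with 17 higher in every epithelial library and 3 higher in every fiber library. Over all tested entries these patterns made up 63.6% and 16.1%. HSPG2 and COL3A1 were the genes whose libraries overlapped.

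**Figure D1:**
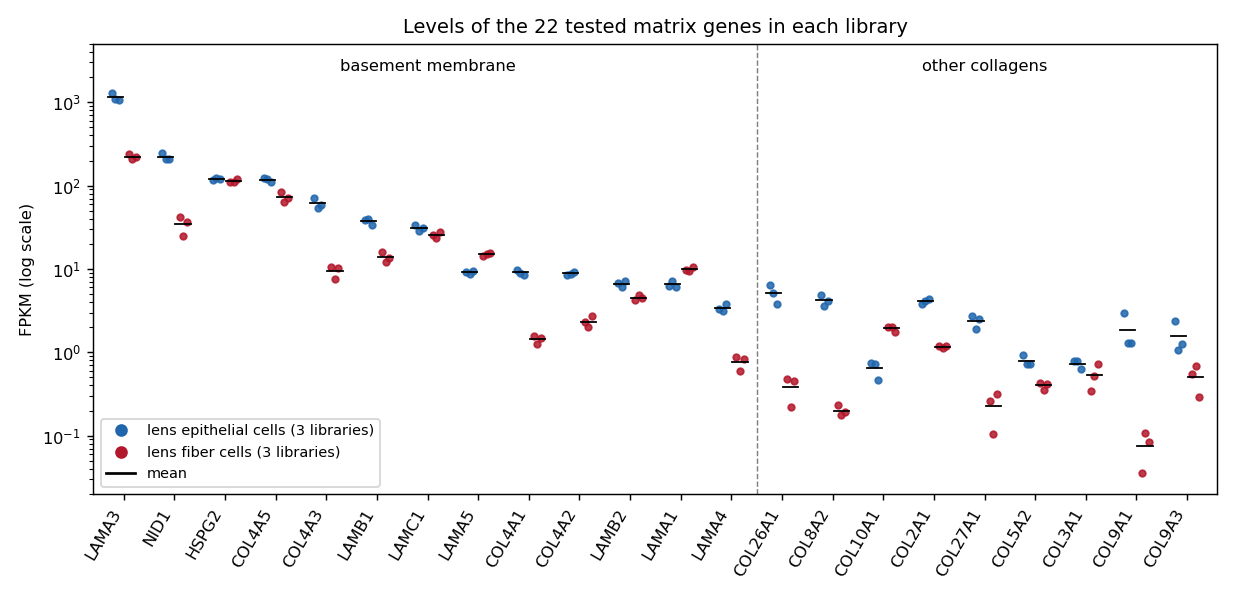
FPKM on a log scale of the 22 matrix genes with a mean of at least 0.5 FPKM, with a point for each of 3 lens epithelial (blue) and 3 lens fiber (red) libraries and a black line at the mean. Basement membrane chains stand left of the dashed line, led by LAMA3 at 1076 to 1281 FPKM in epithelial cells. LAMA5, LAMA1 and COL10A1 are higher in every fiber library.

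Collagen IV is the network collagen of basement membranes, and its COL4A1 and COL4A2 chains form the trimer present in nearly all of them. COL4A1 stood at 9.74, 8.90 and 8.57 FPKM in epithelial libraries 1 to 3 and at 1.55, 1.25 and 1.48 FPKM in fiber libraries 1 to 3. Every epithelial library was well above every fiber library, with a mean 6.35 times as high (log2 fold change −2.59 ± 0.12 SE, adjusted p = 2.20e-06 by limma). COL4A2 stood at 8.54, 8.69 and 9.30 FPKM in epithelial cells and at 2.30, 1.995 and 2.71 FPKM in fiber cells. Its libraries were likewise apart, but its difference was smaller, at 3.79 times (log2 fold change −1.89 ± 0.13 SE, adjusted p = 8.85e-06). Both genes remained called lower after centring, at −1.98 and −1.28. COL4A1 and COL4A2 overlap in the RefSeq annotation, and how the counting treated strand is not given in the sources used here.

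The most abundant collagen IV chain was COL4A5, a chain that in mammals joins COL4A3 and COL4A4, or COL4A6, in specialised basement membranes. It was measured at 122, 120.2 and 110.3 FPKM in epithelial cells and at 83.4, 63.8 and 70.7 FPKM in fiber cells. The epithelial libraries were all higher, by 1.62 times in the mean (log2 fold change −0.70 ± 0.11 SE, adjusted p = 0.000541). This was close to the shift of the median gene, and after centring the log2 fold change of COL4A5 was −0.093 and no longer called (adjusted p = 0.427). Quantile normalization, which also brought the median gene near 0 (−0.037), left COL4A5 at −0.57 and called lower (adjusted p = 0.00253 by limma). COL4A5 was called lower in 16 of 18 fits, and the 2 without the call were the centred fits. In both cell types COL4A5 stood above the 97th percentile of all tested entries by level, at 98.3 in epithelial cells and 97.6 in fiber cells. COL4A1 stood at percentile 75.2 in epithelial cells and 26.2 in fiber cells.

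COL4A3 was listed at 70.6, 53.9 and 59.2 FPKM in epithelial cells and at 10.6, 7.49 and 10.2 FPKM in fiber cells. The libraries did not overlap and the epithelial mean was 6.48 times as high (log2 fold change −2.69 ± 0.15 SE, adjusted p = 4.74e-06). These values were identical in all 6 libraries to those of MFF, a mitochondrial fission gene that lies next to COL4A3 in the RefSeq annotation. The value therefore cannot be assigned to COL4A3 alone. Without COL4A3, the summed level of collagen IV in epithelial cells was 136 ± 6.54 FPKM (SD, n = 3), against 76.4 ± 10.2 FPKM in fiber cells.

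Laminin alpha chains carry the domains that bind cell surface receptors, and here they split in direction. LAMA5 and LAMA1, which encode alpha chains of embryonic basement membranes and, in LAMA1's case, of the mammalian lens capsule, were higher in fiber cells. LAMA5 stood at 9.26, 8.70 and 9.36 FPKM in epithelial cells and at 14.4, 14.96 and 15.5 FPKM in fiber cells. All fiber libraries lay above all epithelial libraries, by 1.64 times in the mean (log2 fold change 0.71 ± 0.081 SE, adjusted p = 9.86e-05). LAMA1 stood at 6.27, 7.25 and 6.09 FPKM in epithelial cells and at 9.75, 9.34 and 10.7 FPKM in fiber cells. Its libraries did not overlap either, and the fiber mean was 1.52 times as high (log2 fold change 0.60 ± 0.10 SE, adjusted p = 0.00101). Centring widened both differences, to 1.32 for LAMA5 and 1.21 for LAMA1. In a stricter limma test, against a log2 fold change of 0.4 rather than 0, LAMA5 was still called and LAMA1 was not.

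LAMA3, the alpha chain of epithelial laminins that anchor the epidermis in mammals, had the highest level of all 46 genes in both cell types. It was listed at 1281, 1094 and 1076 FPKM in epithelial cells and at 237, 210.0 and 219 FPKM in fiber cells. The epithelial libraries stood far above the fiber libraries, by 5.18 times in the mean (log2 fold change −2.37 ± 0.10 SE, adjusted p = 1.76e-06). Its level was at percentile 99.8 of all tested entries in epithelial cells and 99.2 in fiber cells. LAMB3, which encodes the beta chain that pairs with LAMA3 in epidermal laminin, was at only 0.261, 0.344 and 0.184 FPKM in epithelial cells and at 0.0316, 0.0119 and 0.0412 FPKM in fiber cells. The neighbouring genes in the RefSeq annotation were also far below LAMA3, with epithelial means of 4.89 FPKM for ANKRD29 and 6.16 FPKM for TTC39C. No other entry shared LAMA3's values, and whether the signal covered the whole gene was not tested. A long noncoding RNA, LOC121110076, overlaps LAMA3 in the RefSeq annotation and has no entry under that symbol. Whether its reads contributed to LAMA3 was not tested. The part of any epithelial cells in the fiber dissection in its fiber level was not tested either.

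LAMA4, an alpha chain known from vessels and muscle, was much lower than these, with an epithelial mean of 3.40 ± 0.347 FPKM (SD, n = 3), against 0.769 ± 0.155 FPKM in fiber cells. It was called lower in fiber cells (log2 fold change −2.02 ± 0.18 SE, adjusted p = 2.65e-05). The 5 endothelial markers in the table summed to 2.87 to 4.06 FPKM in epithelial libraries and 0.725 to 1.31 FPKM in fiber libraries. Most of this sum was PECAM1 and KDR, both called lower in fiber cells. KDR passed the minimum through epithelial cells alone (means 1.46 and 0.219 FPKM), and PECAM1 was at 0.502 FPKM in fiber cells. The remaining endothelial markers stayed under 1 FPKM throughout, and TIE1 had the higher mean in fiber cells. Their part in the LAMA4 result was not tested. LAMA2, the alpha chain of muscle laminin, did not exceed 0.093 FPKM in any library.

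Among the beta chains, LAMB1 stood at 38.9, 39.2 and 33.4 FPKM in epithelial cells and at 16.0, 12.2 and 13.7 FPKM in fiber cells. It was lower in all fiber libraries (log2 fold change −1.41 ± 0.12 SE, adjusted p = 2.21e-05) and stayed called after centring, at −0.80. LAMB2, the beta chain of neuromuscular and kidney basement membranes, stood at 6.70, 6.02 and 7.12 FPKM in epithelial cells and at 4.21, 4.92 and 4.46 FPKM in fiber cells. It was called lower in fiber cells on the deposited scale (log2 fold change −0.54 ± 0.11 SE, adjusted p = 0.00232), but its sign turned after centring, to 0.072 with an adjusted p of 0.597. With quantile normalization LAMB2 kept its sign, at −0.088, but was not called (adjusted p = 0.505 by limma). LAMB2 shared its values with 2 entries that carry no symbol, so that they may not belong to it alone.

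LAMC1 encodes the gamma chain found in most laminins and was the only gamma chain analysed. It was measured at 33.6, 28.8 and 31.0 FPKM in epithelial cells and at 25.4, 23.4 and 28.1 FPKM in fiber cells. The libraries were close but did not overlap, and the log2 fold change of −0.28 ± 0.098 SE passed the p threshold (adjusted p = 0.0289) but not the size threshold. After centring it stood at 0.33, in the other direction and again under the size threshold. With quantile normalization LAMC1 kept its direction, at −0.14, and was not called (adjusted p = 0.222 by limma). The summed alpha chains without LAMA3 in epithelial cells came to 19.1 ± 0.181 FPKM (SD, n = 3), against 25.7 ± 1.24 FPKM in fiber cells. The summed beta chains came to 44.1 ± 2.90 and 18.5 ± 1.60 FPKM. Apart from LAMA3, the beta chains thus exceeded the alpha chains in every epithelial library and stood below them in every fiber library.

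NID1 encodes nidogen-1, the protein that bridges laminin and collagen IV, and ranked next after LAMA3 in epithelial cells. It stood at 247, 207 and 207 FPKM in epithelial cells and at 42.6, 24.8 and 36.2 FPKM in fiber cells. The fiber libraries were all far lower, and the epithelial mean was 6.38 times as high (log2 fold change −2.70 ± 0.19 SE, adjusted p = 9.56e-06, and −2.09 after centring). NID2, its paralog, did not exceed 0.016 FPKM in any library.

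HSPG2 encodes perlecan, the main heparan sulfate proteoglycan of most basement membranes. It was measured at 116, 125 and 121 FPKM in epithelial cells and at 112, 112 and 119 FPKM in fiber cells. The libraries overlapped, and the log2 fold change of −0.075 had a 95% confidence interval of −0.25 to 0.098 (adjusted p = 0.385). Relative to the median gene HSPG2 was higher in fiber cells, since the centred log2 fold change of 0.53 was called (adjusted p = 0.000695). That call depended on the scaling, as quantile normalization gave 0.11 without a call (adjusted p = 0.308 by limma). HSPG2 was called higher in 2 of 18 fits, both centred. AGRN, the other proteoglycan, was low, at 0.414, 0.190 and 0.117 FPKM in epithelial cells, and in fiber cells it was at the floor in libraries 1 and 3 and at 0.0092 FPKM in library 2.

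**Figure D2:**
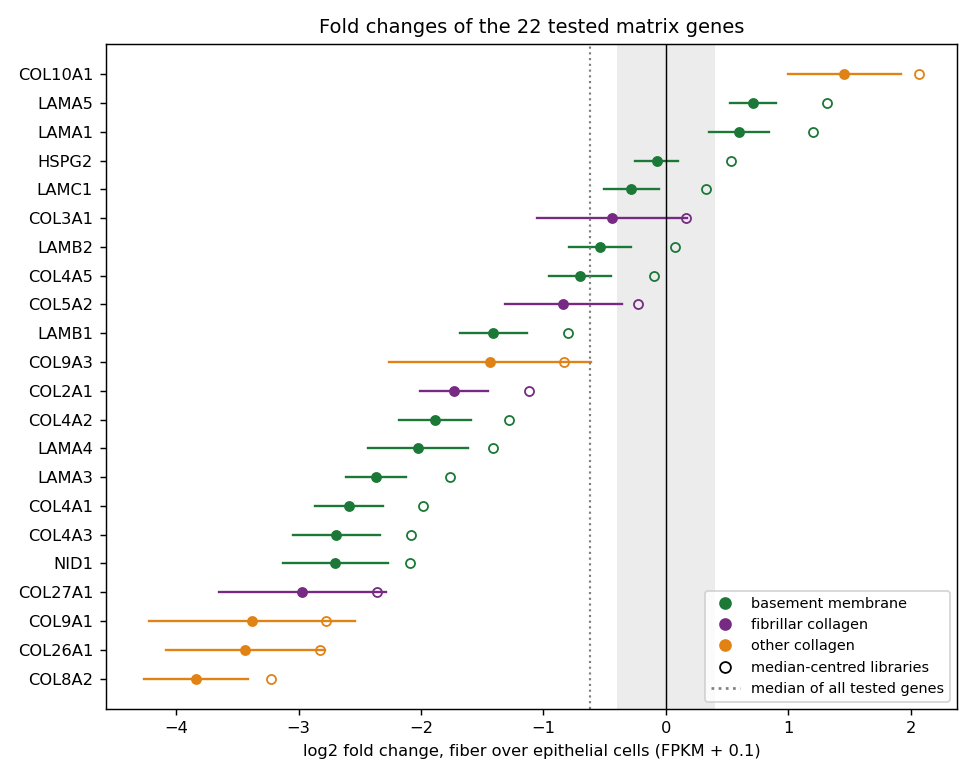
Log2 fold change, fiber over epithelial cells, of the 22 tested matrix genes on the log2(FPKM + 0.1) scale. Filled points and bars give the deposited FPKM with 95% confidence intervals from limma (3 libraries per cell type), open points the median-centred libraries, the dotted line the median of all tested genes at −0.62 and the grey band the size threshold of 0.4. COL8A2 lies lowest at −3.84 and COL10A1 highest at 1.46, and HSPG2, LAMC1, COL3A1 and LAMB2 cross 0 on centring.

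As a group, the basement membrane chains were called lower for 9 of the 13 tested genes and higher for 2, with a median log2 fold change of −1.41. These are 69.2% and 15.4%, beside 57.7% and 13.1% of all tested entries. After centring, 7 were lower and 3 higher (53.8% and 23.1%, beside 29.3% and 30.2% of all entries), with a median of −0.80. Their summed level in epithelial cells was 1782 ± 149 FPKM (SD, n = 3), against 527 ± 37.2 FPKM in fiber cells, a ratio of 3.38 that rested largely on LAMA3. Without LAMA3 and COL4A3, an alternative added after the data were seen, the sums were 571 ± 28.2 and 295 ± 22.7 FPKM, a ratio of 1.93. The median log2 fold change of the remaining 11 genes was −0.70, near that of all tested genes, and 7 of them were called lower and 2 higher. After centring these were 5 lower and 3 higher, with a median of −0.093.

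The mixture of basement membrane transcripts was taken as the share of each chain in their sum, which does not depend on the scaling between libraries. LAMA3 alone gave 64.5% ± 0.931 (SD, n = 3) of the summed FPKM in epithelial cells and 42.2% ± 1.03 in fiber cells. With LAMA3 and COL4A3 left out, NID1 took the largest share in epithelial cells, at 41.0%, 36.8% and 37.9%, and HSPG2 took the largest in fiber cells, at 35.7%, 41.6% and 39.2%. NID1 made up only 13.6%, 9.22% and 11.9% in fiber cells, and HSPG2 made up 19.2%, 22.1% and 22.03% in epithelial cells. For both genes the shares of the cell types did not overlap. COL4A5 had a mean share of 20.6% in epithelial cells and 24.6% in fiber cells. LAMA5 had 1.60% ± 0.0981 in epithelial cells and 5.09% ± 0.470 in fiber cells, and LAMA1 had 1.15% ± 0.127 and 3.37% ± 0.214. LAMC1 had 5.45% ± 0.296 and 8.69% ± 0.559. LAMB1 went the other way, with 6.51% ± 0.432 in epithelial cells and 4.72% ± 0.353 in fiber cells. Shares of a sum are tied to each other, so that a fall in NID1 raises the others, and they were not tested.

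**Figure D3:**
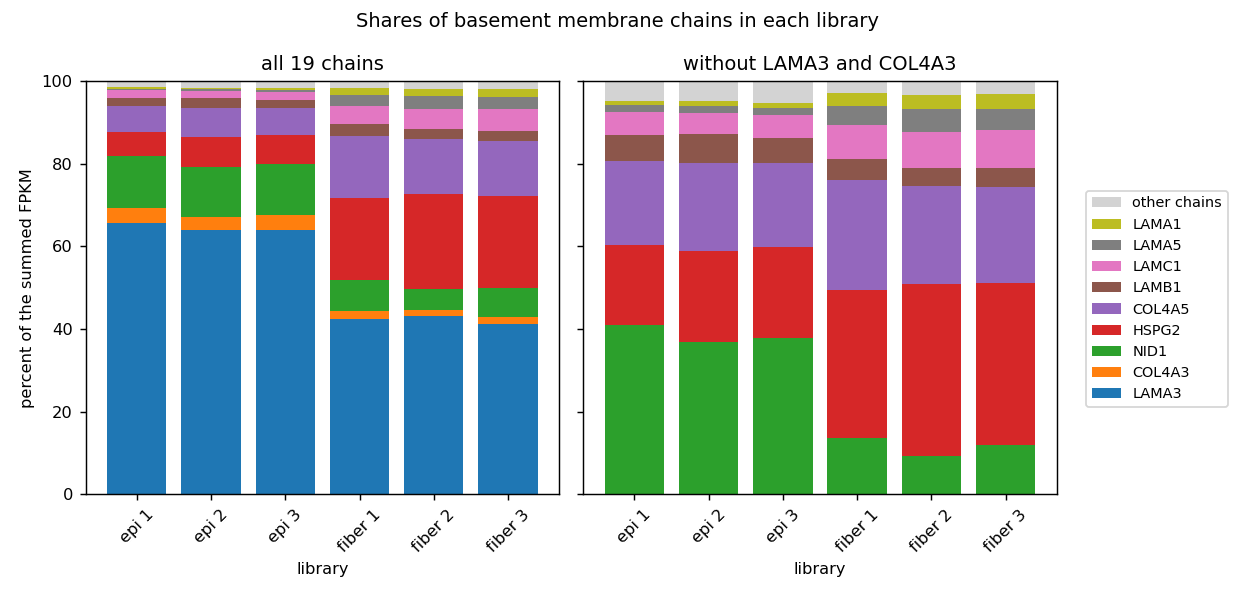
Percent of the summed FPKM of basement membrane chains taken by each chain in each of the 6 libraries, for all 19 chains (left) and without LAMA3 and COL4A3 (right). On the left LAMA3 fills 64.5% on average in epithelial cells and 42.2% in fiber cells, and on the right the NID1 share is larger in every epithelial library and the HSPG2 share in every fiber library.

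For chains that stand in for each other or are built into the same trimer, the ratio of their FPKM within a library was compared between the cell types. Of 9 such pairs, 3 had both genes tested. The log2 ratio of COL4A2 over COL4A1, partners in the same trimer, was −0.19, −0.034 and 0.12 in epithelial libraries and 0.53, 0.63 and 0.84 in fiber libraries. The chains were thus near parity in epithelial cells, and COL4A2 exceeded COL4A1 in every fiber library. The difference was 0.70, and the two-sided exact permutation p was 0.1, the smallest that 3 libraries against 3 can give (0.15 after Benjamini-Hochberg adjustment over the 3 pairs). The log2 ratio of LAMB2 over LAMB1, alternative beta chains, was −2.52, −2.68 and −2.21 in epithelial libraries and −1.90, −1.29 and −1.59 in fiber libraries. LAMB1 exceeded LAMB2 everywhere, by less in fiber cells, and the ratios did not overlap (difference 0.88, exact permutation p = 0.1, adjusted 0.15). As LAMB2 shared its values with 2 entries that carry no symbol, this ratio may not describe LAMB2 alone. The log2 ratio of LAMA5 over LAMA1 was 0.56, 0.26 and 0.61 in epithelial libraries and 0.56, 0.67 and 0.53 in fiber libraries. These values overlapped, and the difference of 0.11 was within their spread (exact permutation p = 0.5, adjusted 0.5).

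**Figure D4:**
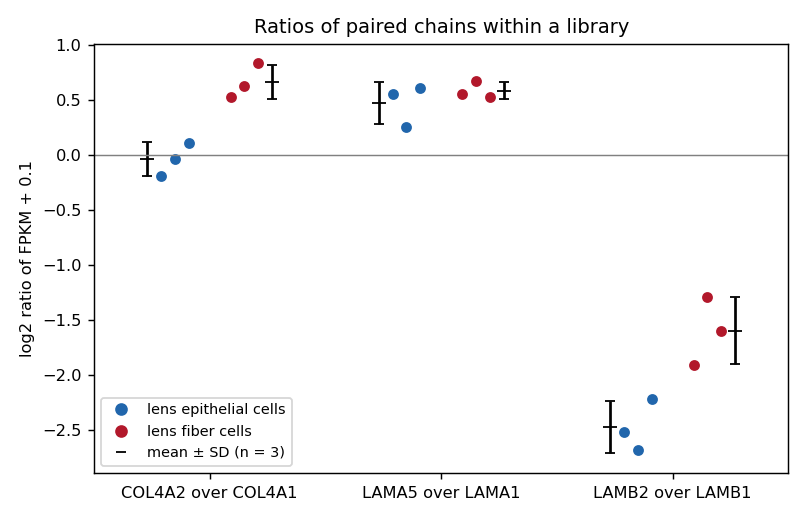
Log2 ratio of FPKM + 0.1 within each library for 3 pairs of chains, with a point per lens epithelial (blue) or lens fiber (red) library and the mean ± SD (n = 3) beside them. COL4A2 over COL4A1 averages −0.035 in epithelial and 0.67 in fiber cells, LAMB2 over LAMB1 averages −2.47 and −1.60, and LAMA5 over LAMA1 overlaps between the cell types.

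Fibrillar collagens were scarce. Epithelial cells had 8.42 ± 0.582 FPKM (SD, n = 3) for the 7 genes together and fiber cells had 2.38 ± 0.282 FPKM, or 0.467% and 0.448% of the sum of all 46 genes. LAMA3 made up 1150 of the 1806 FPKM in that sum in epithelial cells and 222 of 533 FPKM in fiber cells. The near-equal shares therefore depend on LAMA3. Of the 4 that were tested, 3 were called lower in fiber cells (2 after centring) and none was called higher, beside 57.7% lower over all tested entries (29.3% after centring). COL27A1 and COL5A2, among the 3, passed the minimum through epithelial cells alone. The epithelial sum was 3.53 times the fiber sum. The basement membrane chains gave 3.38 times, and 1.93 times without LAMA3 and COL4A3, and these differences were not tested.

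COL2A1, the collagen of cartilage and the vitreous, was the most abundant fibrillar chain. It stood at 3.82, 4.08 and 4.36 FPKM in epithelial cells and at 1.18, 1.13 and 1.18 FPKM in fiber cells, with no overlap (log2 fold change −1.73 ± 0.12 SE, adjusted p = 9.42e-06). COL27A1, a fibrillar collagen of cartilage, stood at 2.75, 1.90 and 2.50 FPKM in epithelial cells and at 0.257, 0.106 and 0.318 FPKM in fiber cells. Its epithelial mean was 10.5 times as high (log2 fold change −2.97 ± 0.30 SE, adjusted p = 4.94e-05). COL5A2, which co-assembles into collagen I fibrils, was under 1 FPKM in all libraries, and its call (log2 fold change −0.84 ± 0.21 SE, adjusted p = 0.00600) was lost after centring, at −0.23. COL3A1, the collagen of soft connective tissue, was not called (log2 fold change −0.44 ± 0.27 SE, adjusted p = 0.160) and turned to 0.17 after centring.

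The chains of collagen I, the main collagen of stroma and sclera, were low. COL1A1 did not exceed 0.0828 FPKM, and COL1A2 stood at 0.468, 0.101 and 0.214 FPKM in epithelial cells and at 0.07 FPKM, 0.0216 FPKM and the floor in fiber cells. Of 11 markers of connective tissue and corneal stroma in the table, TWIST1, TWIST2 and TCF21 were among those at the floor in all 6 libraries. The summed level of the list was 6.62 to 8.65 FPKM in epithelial libraries and 7.11 to 7.497 FPKM in fiber libraries, ranges that overlapped. The tested markers differed in direction, however, as 2 were called lower in fiber cells and 1 higher (1 and 1 after centring). KERA, a corneal proteoglycan, was lower (epithelial and fiber means 3.59 and 1.01 FPKM, log2 fold change −1.75). PDGFRB was also lower (means 1.08 and 0.596 FPKM, log2 fold change −0.79). DCN, decorin, was higher (means 2.32 and 5.65 FPKM, log2 fold change 1.34). Below the minimum, OGN, LUM and POSTN had lower means in fiber cells and PRRX1 had a higher one. The part of these markers in the results on fibrillar collagens was not tested.

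Of the remaining collagens, COL8A2, COL26A1 and COL9A1 had the largest fold changes of the 22 genes with 0.1 FPKM added, although all 3 passed the minimum through epithelial cells alone. With 1 FPKM added, NID1 (−2.67), COL4A3 (−2.58, with values shared with MFF) and LAMA3 (−2.36) came before COL26A1 (−2.12), COL8A2 (−2.11) and COL9A1 (−1.35). COL8A2, a network collagen known from Descemet's membrane of the cornea, stood at 4.91, 3.57 and 4.13 FPKM in epithelial cells and at 0.233, 0.176 and 0.190 FPKM in fiber cells. The epithelial mean was 21.1 times as high (log2 fold change −3.84 ± 0.18 SE, adjusted p = 2.45e-06). COL26A1 stood at 6.49, 5.08 and 3.75 FPKM in epithelial cells and at 0.482, 0.223 and 0.453 FPKM in fiber cells, 13.2 times as high in epithelial cells (log2 fold change −3.44 ± 0.28 SE, adjusted p = 1.99e-05). In both genes no fiber library came near an epithelial library. COL8A1, the partner of COL8A2 in mammalian Descemet's membrane, was above the floor in 1 library only, at 0.109 FPKM.

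Collagen IX decorates the surface of collagen II fibrils in cartilage and the vitreous. COL9A1 stood at 2.98, 1.28 and 1.29 FPKM in epithelial cells and at 0.0354, 0.109 and 0.0832 FPKM in fiber cells. Its epithelial mean was 24.3 times as high, although epithelial library 1 was far above the other two (log2 fold change −3.38 ± 0.36 SE, adjusted p = 7.35e-05). COL9A3 was also called lower in fiber cells (log2 fold change −1.44 ± 0.36 SE, adjusted p = 0.00631), but not after centring, at −0.83 with an adjusted p of 0.0786. The 6 retinal markers in the table, a tissue next to the vitreous, summed to 2.11 to 2.62 FPKM in epithelial libraries and 2.19 to 3.08 FPKM in fiber libraries, ranges that overlapped. The 6 iris and pigment markers summed to 2.40 to 4.95 and 1.42 to 3.10 FPKM, which also overlapped. Among them MITF had means of 1.73 and 1.71 FPKM, PMEL 0.664 and 0.373 FPKM, and DCT 0.823 and 0.0141 FPKM. TYR, TYRP1 and MLANA were at the floor in fiber cells, with epithelial means of 0.252, 0.184 and 0.183 FPKM. The part of these tissues in the collagen IX results was not tested.

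COL10A1, the collagen of hypertrophic cartilage, was the only collagen called higher in fiber cells among the 22 tested genes on the deposited and the centred scale, while COL3A1 was also called higher with quantile normalization (0.76). It stood at 0.747, 0.734 and 0.469 FPKM in epithelial cells and at 2.04, 2.003 and 1.76 FPKM in fiber cells. Every fiber library was higher, by 2.97 times in the mean (log2 fold change 1.46 ± 0.20 SE, adjusted p = 0.000264). COL10A1 overlaps NT5DC1 in the RefSeq annotation, and NT5DC1 was itself higher in fiber cells, with means of 61.5 against 9.86 FPKM (log2 fold change 2.65). Whether reads of NT5DC1 contributed to COL10A1 was not tested.

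The other 24 genes fell below the minimum of 0.5 FPKM. COL13A1, COL14A1 and COL15A1 were at the floor in all libraries. With COL3A1 and COL5A2, which passed the minimum, 26 of the 46 genes stayed under 1 FPKM in every library. Of the 24, 8 were higher in all epithelial libraries (COL12A1, COL1A2, COL5A1, COL6A1, COL17A1, LAMB3, AGRN and NID2), 2 were higher in all fiber libraries (COL20A1 and COL28A1) and 14 overlapped. Of all 5743 entries below the minimum, 21.3% were higher in all epithelial libraries and 4.27% in all fiber libraries. The highest level among the 8 was that of COL12A1, a collagen on the surface of collagen I fibrils, with a mean of 0.718 FPKM in epithelial cells and 0.0152 FPKM in fiber cells. COL20A1 was at the floor in every epithelial library and had a mean of 0.162 FPKM in fiber cells. When all 16561 entries were fitted without the minimum, 6 of the 24 were called lower and 2 higher (COL20A1 and COL28A1). That fit called 16.2% of all entries below the minimum lower and 3.06% higher. Collagen VI, the beaded filament collagen of most connective tissues, did not exceed 0.279 FPKM for any of COL6A1, COL6A2 and COL6A3.

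Genes that act on these proteins were mostly lower in fiber cells as well. Over all tested entries 57.7% were called lower and 13.1% higher, and 29.3% and 30.2% after centring. Of 15 tested genes of collagen processing and crosslinking, 14 were called lower and none higher, with a median log2 fold change of −1.57 (10 lower after centring). ADAMTS3 passed the minimum through epithelial cells alone, and 13 of the other 14 were called lower. Examples, picked after their values were seen, are SERPINH1, the collagen chaperone, with an epithelial mean of 267 ± 29.3 FPKM (SD, n = 3) against 74.8 ± 13.7 FPKM in fiber cells, and SPARC, a collagen-binding protein, with 448 ± 31.1 and 98.5 ± 9.53 FPKM. PXDN, the peroxidase that crosslinks collagen IV, had a log2 fold change of −0.77. Of 13 tested basement membrane receptors, 9 were called lower and none higher, with a median of −1.50 (8 lower and 1 higher after centring). Without DDR1 and SDC1, which passed through epithelial cells alone, 7 of 11 were called lower, not far from the share over all tested entries. After centring these were 6 lower and 1 higher. The laminin receptor chain ITGA6 was at 19.5 ± 1.04 and 20.2 ± 2.41 FPKM, with a log2 fold change of 0.046. The 7 tested genes of other basement membrane associated proteins were called lower with and without centring, but FBLN1, FREM1 and FREM2 passed the minimum through epithelial cells alone. The remaining 4 (FRAS1, HMCN1, TINAGL1 and TGFBI) were called lower on both scales.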

How the data were processed

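The deposited FPKM per library were the authors' values, made by trimming with cutadapt, mapping to galGal6 with Bowtie2 and HISAT2 and assembly with StringTie. The tool versions are not given in the sources used here. The authors' deposited mean FPKM, fold change ratio, log2 fold change and p-value columns, for which edgeR is named, were not used. Depth in reads is unknown, and precision was taken from the 3 libraries of each cell type.

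Members were matched by symbol, and the members and lists were chosen with earlier results of these data known. Entries with a mean under 0.5 FPKM were left out (5743 of 16561). Log2(FPKM + 0.1) of the other 10818 was fitted with limma 3.58.1 in R 4.3.3, with a mean-variance trend and no covariates, after tests on simulated data. The pseudocount lowers the fold change of scarce genes. Ratios of means are of FPKM. Paired-chain ratios used an exact permutation test (scipy 1.17.1). Per-library values are given for the genes of tested pairs, the 5 highest in each cell type, the 5 largest called changes in each direction and every gene called higher. COL2A1, COL1A2, AGRN and LAMB3 were added after their values were seen. RefSeq (a later assembly) was used for names, neighbours and overlaps only. Some genes of the lists are not reported here. Alternatives covered scaling, pseudocount, filter, test, identical entries, replicate block and single libraries left out.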

Additional observations from a re-analysis of the deposited data

How the results depend on the processing

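Across the 18 fits, 12 genes were called lower in every fit that tested them (COL26A1, COL27A1, COL2A1, COL4A1, COL4A2, COL4A3, COL8A2, COL9A1, LAMA3, LAMA4, LAMB1 and NID1, of which COL9A1 fell below the minimum of 1 FPKM in the stricter filter) and LAMA5 and COL10A1 were called higher in every fit. COL4A3 shares its values with MFF and cannot be told apart from it. COL26A1, COL27A1, COL8A2 and COL9A1 passed the minimum of 0.5 FPKM through epithelial cells alone. Leaving out each library in turn gave 16 genes lower and 3 higher each time, with 9 and 2 among basement membrane chains and 3 and 0 among fibrillar collagens. Calls over all genes depended on scaling. With the deposited FPKM 1415 were higher and 6240 lower (81.5% of calls lower), with centring 3263 and 3167 (49.3%), with quantile normalization 2884 and 3228 (52.8%). Without a filter 5 matrix genes were called higher. In the treat test against 0.4, 1 basement membrane gene was higher (4727 genes lower over all). With quantile normalization 1 fibrillar collagen, COL3A1, was higher. Signs turned for COL3A1 (0.17 with centring, 0.76 with quantile normalization), COL5A2 (0.42 with quantile normalization), HSPG2 (0.53 with centring, 0.11 with quantile normalization, 0.093 without the δ-crystallin entries), LAMB2 (0.072) and LAMC1 (0.33, both with centring). The cause was not tested beyond the shift of the median gene that centring removes. The replicate block gave 16 genes lower and 3 higher, and with centring the block gave the centred values 0.17 for COL3A1, 0.53 for HSPG2, 0.072 for LAMB2 and 0.33 for LAMC1. Deviations of same-numbered libraries correlated at 0.0858, 0.0659 and 0.0666, each library best with its own number. This is a hint only, and no label states whether equal numbers mark the same lens pool. The COL4A2 over COL4A1 difference was 0.62 to 0.78, LAMB2 over LAMB1 0.72 to 1.03, and LAMA5 over LAMA1 0.0036 (without epithelial library 2) to 0.18, with a library left out.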
